A study of Mus musculus with 6 samples.

Results

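The calpains are calcium-dependent cysteine proteases that act in the cytoplasm, and the 8 genes described here were Capn8, the catalytic calpains Capn1, Capn2, Capn5, Capn7 and Capn10, the small regulatory subunit Capns1 and Cast, which encodes the inhibitor calpastatin. They were taken by gene symbol from a table of 24063 genes. All 8 passed the filter on low counts, which left 13572 genes for testing. Capn8 was chosen by its counts in this same comparison, which were known to be higher in Nr2e3-/- than in WT tumors, so its own difference is given as a description with no test. The other 7 were taken as members of its family, with earlier results of these data known. The tumors came from male C57BL/6 mice, 3 of them WT (NR2E3+/+) and 3 Nr2e3-/-, and each mouse gave 1 RNA-seq library. Mice of both genotypes had been injected at 15 days of age with diethylnitrosamine (DEN, 25 mg per kg), which hepatocytes turn into a DNA-damaging agent, and the tumors were from the 24-week time point. The knockout line was described elsewhere, the WT mice came from a commercial supplier, and whether the groups were littermates was not stated. Since no untreated liver was analysed here, the values compare tumors with tumors.

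Conventional calpains are heterodimers. A large catalytic subunit, Capn1 (mu-calpain) or Capn2 (m-calpain), pairs with the small subunit encoded by Capns1, and calcium binding rearranges the protease core so that a catalytic cysteine comes into place. Calpastatin binds the active heterodimers and blocks them, and the enzymes cut their substrates at a few positions rather than degrading them, for example cytoskeletal linkers during cell movement. Capn8, or nCL-2, has the domain layout of the conventional calpains but is known mainly from mucous cells of the stomach, where it works with Capn9. Capn5, Capn7 and Capn10 are atypical calpains that lack the calcium-binding domain through which the small subunit is held.

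The kinship of Capn8 with the conventional calpains can be read in the coding sequence around the catalytic cysteine. The 3 stretches below are shown because they hold the residue on which protease activity depends. Each is 54 bases long, written 5′ to 3′ from the GENCODE M21 annotation of GRCm38, and capitals mark the codons of the catalytic cysteine and the tryptophan after it.
Capn8: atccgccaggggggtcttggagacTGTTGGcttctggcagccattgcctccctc
Capn2: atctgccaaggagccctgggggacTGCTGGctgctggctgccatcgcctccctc
Capn1: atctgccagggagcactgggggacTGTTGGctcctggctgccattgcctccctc
The Capn8 stretch lies at chr1:182571984-182596981 on the forward strand, the Capn2 stretch at chr1:182492836-182512225 and the Capn1 stretch at chr19:6013673-6014014, both on the reverse strand, and each span includes an intron. The cysteine is codon 105 in Capn8 and Capn2 and codon 115 in Capn1. Capn8 differed from Capn2 at 11 of the 54 bases and from Capn1 at 8, whereas Capn1 and Capn2 differed at 5. Over the whole coding sequence, 66.3% of bases were identical between Capn8 and Capn2 and 64.8% between Capn8 and Capn1. Identity was 59.6% with Capn9, while Cast, which is not related, gave 50.5% by the same alignment. Despite this kinship, none of the 3670 words of 36 bases in Capn8 transcripts occurred in transcripts of another gene, and no calpain gene shared such a word with another calpain gene.

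The depth of the libraries and their cell content bear on every value. Total counts per library ranged from 15376261 to 28690279, and Nr2e3-/- replicate 1 was the shallowest. Limma-voom gave that library a quality weight of 0.338 and Nr2e3-/- replicate 2 one of 0.508, beside 1.26 to 1.69 for the other 4. Leaving out Nr2e3-/- replicate 1 raised the number of genes called by edgeR from 13 to 3022, so results are also given without it where they change. Nr2e3 itself had 0 counts in all 6 libraries, so the genotype labels could not be checked from it. All 10 hepatocyte markers were detected, and they summed to 133516 to 163498 CPM (counts scaled to the library size, here with TMM normalization) in WT and 125998 to 142480 in Nr2e3-/- tumors. Most of each sum was Alb (albumin), at 100408 to 130236 CPM in WT and 84013 to 103170 in Nr2e3-/- tumors. Of the 10 log2 fold changes, 6 were above 0 and 4 below, with a median of 0.24. In bulk tissue, fewer cells of a type and less RNA per cell cannot be told apart.

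Of the 13 calpain genes tested, Capn8 had the largest log2 fold change between the genotypes. It lies on chromosome 1 at 182564749 to 182634456 (GRCm38, forward strand) and had 60, 42 and 65 counts in the WT libraries and 215, 223 and 245 in the Nr2e3-/- libraries. Scaled to depth, this was 2.30, 1.42 and 2.25 CPM in WT and 14.2, 8.28 and 13.2 CPM in Nr2e3-/- tumors. Each Nr2e3-/- library was above each WT library, and the lowest Nr2e3-/- value was that of replicate 2. The means were 1.99 ± 0.496 and 11.9 ± 3.19 CPM (SD, n = 3), a 5.98-fold difference, and the fitted log2 fold change was 2.58 with a standard error of 0.29. Of all genes tested, 13 passed an adjusted p of 0.05 in edgeR, which is 0.0958%. Among those higher in Nr2e3-/- tumors, Moxd1 at 7.16 and E030018B13Rik at 3.39 had a larger log2 fold change than Capn8. By adjusted p, the called gene nearest the threshold was at 0.0466 and the closest genes outside it were at 0.0700. The log2 fold change of Capn8 was 2.44 without Nr2e3-/- replicate 1.

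**Figure D1:**
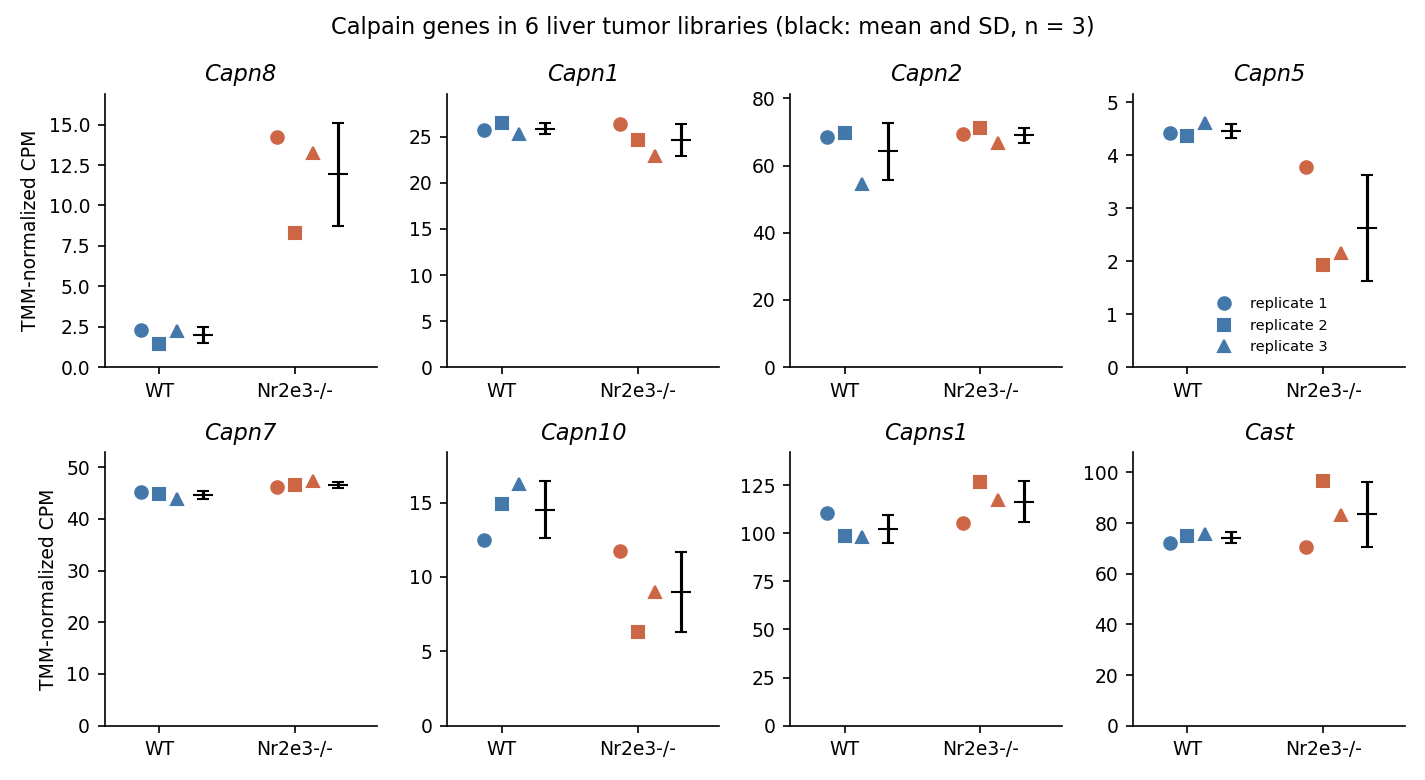
TMM-normalized CPM (vertical axes, from 0) of the 8 calpain genes in each of 3 WT (blue) and 3 Nr2e3-/- (orange) tumor libraries, with marker shapes for replicates and black bars for the mean and SD. Capn8 lies between 8.28 and 14.2 CPM in Nr2e3-/- and between 1.42 and 2.30 CPM in WT tumors, Capn5 and Capn10 lie lower in all 3 Nr2e3-/- libraries, and Capn1, Capn2, Capns1 and Cast overlap between genotypes.

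Markers of the stomach mucous cells in which Capn8 is best known were near 0. Of 10 such genes other than Capn9, Gkn1 and Gkn2, gastrokines of surface mucous cells, had no counts in any library. The 8 genes other than Tff1 and Ctse never exceeded 2 counts. Together the 10 genes summed to 1.39 to 1.996 CPM in WT and 1.30 to 1.52 CPM in Nr2e3-/- tumors. Capn9, the partner of Capn8 in the stomach, had 2 counts in WT replicate 2 and 0 in the other 5 libraries. A count of 0 allows up to 3 counts, which is 0.101 to 0.199 CPM here, counting error only. Pancreatic acinar genes, which would mark neighbouring tissue, summed to at most 0.192 CPM, with 5 of 8 at 0 in all libraries. Bile duct markers summed to 98.1 to 218 CPM in WT and 173 to 583 CPM in Nr2e3-/- tumors. Most of each sum came from Spp1 and Tff3. Spp1 was at 46.0 to 107 CPM in WT and 56.3 to 410 CPM in Nr2e3-/- tumors, and Tff3 at 22.7 to 70.9 and 34.0 to 140 CPM. The part of bile duct cells in the Capn8 values was not tested. Of the 10 bile duct markers tested, 6 had a log2 fold change above 0 and 4 below. At an edgeR unadjusted p under 0.05, 2 were higher and 2 lower, beside 21.5% of all genes tested. In edgeR 0 passed the adjusted threshold. As alternative fits, DESeq2 called 3 of 11 fitted and limma-voom 1 of 10.

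The conventional calpains, their small subunit and their inhibitor did not pass the test. Capn1, at 5988545 to 6015825 on the reverse strand of chromosome 19, had 25.7, 26.5 and 25.4 CPM in WT and 26.4, 24.6 and 22.9 CPM in Nr2e3-/- tumors. The groups overlapped, with a log2 fold change of -0.07 and a standard error of 0.10 (edgeR adjusted p = 0.714). Capn2, at 182467253 to 182517610 on the reverse strand of chromosome 1, had 68.6, 69.6 and 54.5 CPM in WT and 69.3, 71.1 and 66.6 CPM in Nr2e3-/- tumors. WT replicate 3 was the low library, and the log2 fold change of 0.10 ± 0.12 (SE, edgeR adjusted p = 0.641) became -0.01 without it. Capns1, at 30186934 to 30198883 on the reverse strand of chromosome 7, had 111, 98.4 and 97.9 CPM in WT and 105, 126 and 118 CPM in Nr2e3-/- tumors. Nr2e3-/- replicate 1 lay within the WT range and the other 2 above it, with a log2 fold change of 0.19 ± 0.11 (SE, edgeR adjusted p = 0.362). Cast, at 74692366 to 74808874 on the reverse strand of chromosome 13, had 72.0, 75.1 and 75.8 CPM in WT and 70.5, 96.5 and 83.3 CPM in Nr2e3-/- tumors. Here too Nr2e3-/- replicate 1 was the lowest of its group and the groups overlapped (log2 fold change 0.17 ± 0.13 SE, edgeR adjusted p = 0.473). Exons of Cast overlap those of Erap1, an aminopeptidase gene on the opposite strand, over 834 bases, and Erap1 had a log2 fold change of 0.01. Of the 36-base words of Cast, 20.4% occur in transcripts of other genes. Exons of Capn1 overlap an opposite-strand gene over 394 bases, and 7.94% of its words occur elsewhere. The ratio of Capn1 plus Capn2 to Cast, per kb of exon, was 2.30, 2.24 and 1.84 in WT and 2.38, 1.74 and 1.88 in Nr2e3-/- tumors, so the genotypes overlapped in the balance of conventional protease to inhibitor RNA.

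Among the atypical calpains, Capn10 and Capn5 had lower values in every Nr2e3-/- library, but neither passed the test over all genes. Capn10, a gene studied for its link to type 2 diabetes, lies at 92934408 to 92947948 on the forward strand of chromosome 1 and had 12.5, 14.9 and 16.2 CPM in WT and 11.7, 6.31 and 8.98 CPM in Nr2e3-/- tumors. The means were 14.5 ± 1.90 and 9.002 ± 2.70 CPM (SD, n = 3). The groups did not overlap, although Nr2e3-/- replicate 1 was close to WT replicate 1. The log2 fold change was -0.70 with a standard error of 0.23 (edgeR unadjusted p = 0.0196, adjusted p = 0.166). Exons of Capn10 overlap those of 9430060I03Rik on the opposite strand over 639 bases, and 18.1% of its 36-base words occur in another gene's transcripts. That gene was at only 0.446 to 1.18 CPM, with a log2 fold change of -0.68 ± 0.41 (SE, edgeR adjusted p = 0.367). RefSeq gives "Capn8" as an older name of Capn10, but the table holds a separate row for each.

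Capn5, an atypical calpain whose human counterpart is mutated in an inherited inflammatory eye disease, lies at 98121559 to 98178946 on the reverse strand of chromosome 7. It had 4.42, 4.36 and 4.61 CPM in WT and 3.77, 1.93 and 2.16 CPM in Nr2e3-/- tumors. The WT libraries were close together and the Nr2e3-/- libraries spread out below them, with means of 4.46 ± 0.131 and 2.62 ± 1.004 CPM (SD, n = 3). The log2 fold change was -0.79 with a standard error of 0.28 (edgeR unadjusted p = 0.0246, adjusted p = 0.177). Nr2e3-/- replicate 1 was again the one nearest to WT. Without it, the edgeR adjusted p was 0.0111 for Capn5 at a log2 fold change of -1.12 and 0.0223 for Capn10 at -0.93. With any other library left out, the edgeR adjusted p was 0.288 to 0.45 for Capn5 and 0.239 to 0.416 for Capn10.

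Capn7, a calpain that binds the membrane-remodelling ESCRT machinery, lies at 31336622 to 31371987 on the forward strand of chromosome 14 and had the lowest coefficient of variation of the 8 genes in both genotypes, 1.68% in WT and 1.29% in Nr2e3-/- tumors. It had 45.2, 44.9 and 43.8 CPM in WT and 46.1, 46.5 and 47.3 CPM in Nr2e3-/- tumors. The groups did not overlap, but the log2 fold change was only 0.06 ± 0.09 (SE, edgeR adjusted p = 0.686), and it became -0.02 under upper quartile normalization.

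Counted together, 0 of the 7 members other than Capn8 passed an adjusted p of 0.05 in edgeR, and 0 did so in DESeq2. Limma-voom with quality weights called 2, Capn10 (adjusted p = 0.0365) and Capn5 (adjusted p = 0.0234). Over all genes, edgeR called 13, DESeq2 1096 and limma-voom 2360. At an edgeR unadjusted p under 0.05 there were 2 of 7, both lower, beside 21.5% of all genes tested. The groups did not overlap for 3 of 7 (Capn5, Capn7 and Capn10), beside 26.8% of all genes tested. The median log2 fold change of the 7 was 0.06, and that of all genes tested was 0.01. The smallest p that exact permutation of 3 against 3 libraries allows is 0.1, and the edgeR p-values measure the spread between these mice.

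The other calpain genes were Capn3, Capn6, Capn9, Capn11, Capn12, Capn13, Capn15 and Capns2. Capn15, a calpain with zinc fingers and no calcium-binding domain of the conventional kind, had 12.2, 10.7 and 11.8 CPM in WT and 16.0, 18.3 and 19.4 CPM in Nr2e3-/- tumors. All 3 Nr2e3-/- libraries were above all 3 WT libraries, with means of 11.6 ± 0.785 and 17.9 ± 1.74 CPM (SD, n = 3). The log2 fold change was 0.63 ± 0.13 (SE), with an edgeR unadjusted p of 0.00156 and an adjusted p of 0.0963. The adjusted p was 0.00392 in DESeq2, 0.0161 in limma-voom and 0.0104 in edgeR without Nr2e3-/- replicate 1. In the remaining alternatives, all edgeR fits, it was 0.0829 to 0.338. Exons of Capn15 overlap an opposite-strand gene over 871 bases. Capn11, known from the testis, had 1.96, 2.67 and 0.555 CPM in WT and 0.596, 0.891 and 0.216 CPM in Nr2e3-/- tumors. WT replicate 3 was as low as the Nr2e3-/- libraries, so the groups overlapped (edgeR adjusted p = 0.236). Capn3, the muscle calpain, Capn6, which lacks the catalytic cysteine, and Capn12, known from skin, had log2 fold changes of -0.09, -0.87 and -0.12, with edgeR adjusted p-values of 0.853, 0.484 and 0.528. Capn9, Capn13 and Capns2 had at most 2 counts in any library and were not tested. Of the 5 tested, 1 had an edgeR unadjusted p under 0.05, beside 21.5% of all genes, and the median log2 fold change was -0.12. Of these 5, 0 passed the adjusted threshold in edgeR, 1 (Capn15) did in DESeq2 and in limma-voom, and 2 (Capn15 and Capn6) did in edgeR without Nr2e3-/- replicate 1. These fits called 13, 1096, 2360 and 3022 genes over the whole table.

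Levels of different genes were compared as TMM-normalized CPM per kb of exon. In WT tumors Capns1 was highest at 61.0 ± 4.28, followed by Capn2 at 19.9 ± 2.62, Cast at 13.03 ± 0.358, Capn7 at 12.2 ± 0.205 and Capn1 at 7.74 ± 0.179 CPM per kb (SD, n = 3). Each neighbour in that order, down to Capn5 at 0.868 ± 0.0254, had WT libraries that did not overlap with the next. Below it, Capn5, Capn11, Capn3 and Capn8 overlapped each with the next. Capn8 was 12th of 16 calpain genes in WT, at 0.538 ± 0.134 CPM per kb, and 8th in Nr2e3-/- tumors, at 3.22 ± 0.862. In Nr2e3-/- tumors its libraries overlapped with those of Capn15, at 3.39 ± 0.330, and Capn10, at 2.67 ± 0.801. It was 7th with the longest annotated transcript as the length, and also without Nr2e3-/- replicate 2.

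**Figure D2:**
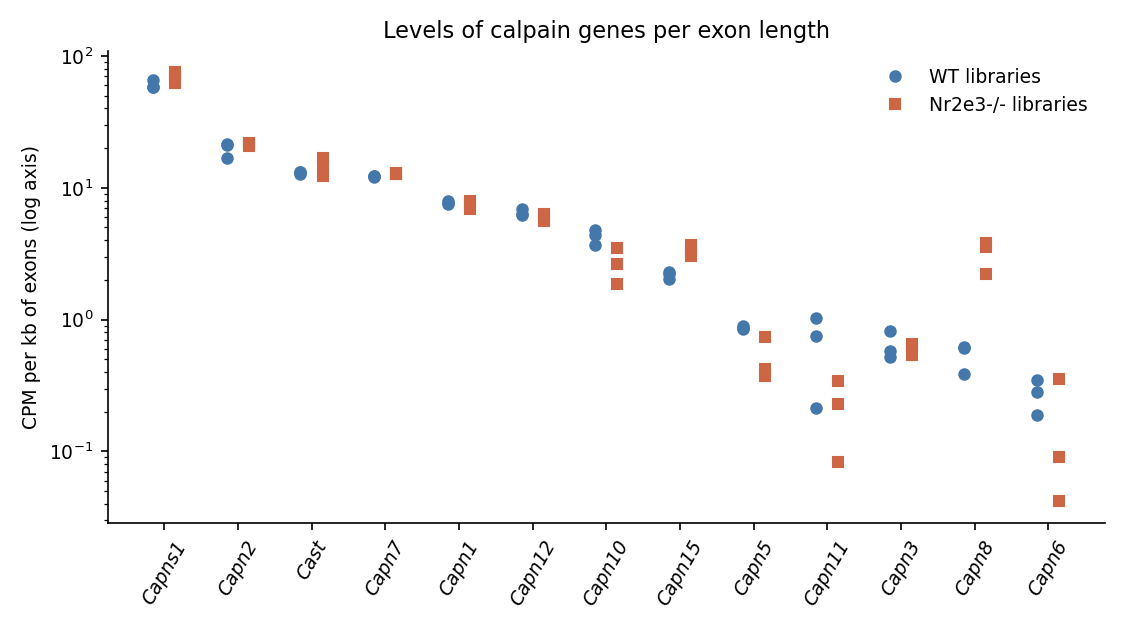
Level of 13 calpain genes in each library as TMM-normalized CPM per kb of exon (log axis), ordered by the WT mean, with circles for WT and squares for Nr2e3-/- tumors. Capn8 stands near the low end in WT, at a mean of 0.538, and beside Capn15 and Capn10 in Nr2e3-/- tumors, at a mean of 3.22 CPM per kb.

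Capn8 stayed a small part of the calpain RNA in both genotypes. Its share of the summed level per kb of the 13 genes for calpain large subunits was 1.08%, 0.666% and 1.16% in WT and 6.33%, 3.95% and 6.22% in Nr2e3-/- tumors. The sum itself was 57.6, 57.5 and 52.4 CPM per kb in WT and 60.7, 56.6 and 57.5 in Nr2e3-/- tumors, so it overlapped between genotypes. The share of Capn10 was 6.43%, 7.67% and 9.18% in WT and 5.72%, 3.31% and 4.63% in Nr2e3-/- tumors. Every WT library thus held a larger share of Capn10 than of Capn8, while in each Nr2e3-/- library the share of Capn8 was the larger. For each unit of Capn2 per kb there was 0.0292, 0.0178 and 0.0360 of Capn8 in WT and 0.179, 0.101 and 0.173 in Nr2e3-/- tumors.

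**Figure D3:**
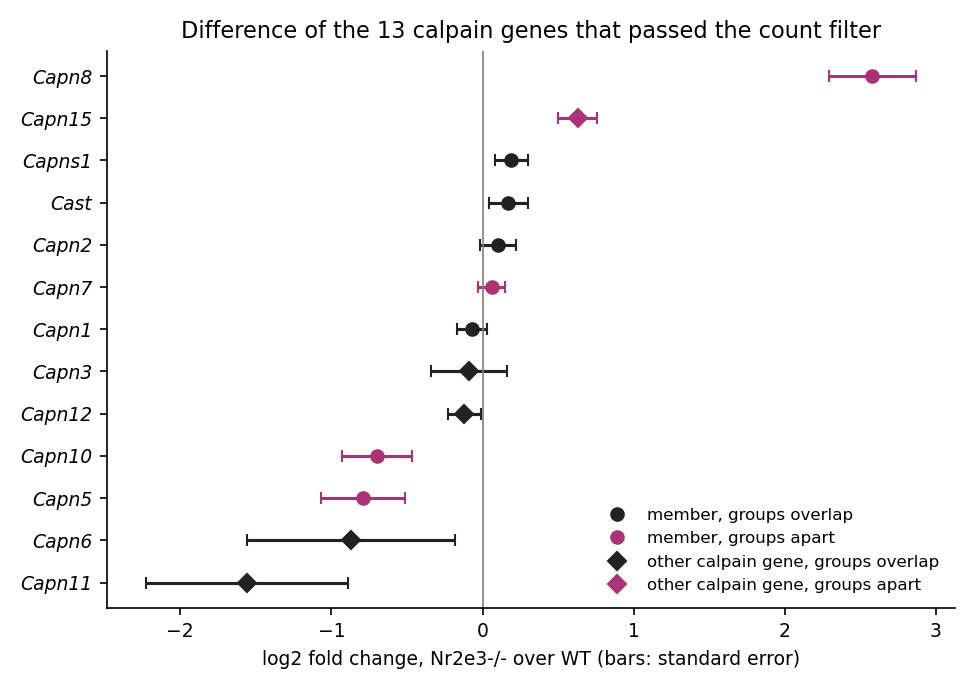
Fitted log2 fold changes (Nr2e3-/- over WT, horizontal axis) with standard errors for the 13 calpain genes tested, with circles for members, diamonds for the other calpain genes and purple where the libraries of the genotypes did not overlap. Capn8 is at 2.58 and is a description, Capn15 is at 0.63, and Capn10 and Capn5 are at -0.70 and -0.79.

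Capn8 and Capn2 are neighbours on chromosome 1, pointing away from each other with 47.1 kb between them. Of the 5 protein-coding genes on either side of Capn8, 0 of 8 tested passed an adjusted p of 0.05 in edgeR, and 1, Tlr5, had an unadjusted p under 0.05. Over all genes tested, 0.0958% passed the first threshold and 21.5% the second. On the Capn2 side, Trp53bp2, a regulator of p53-dependent apoptosis 102 kb away, had a log2 fold change of 0.11 ± 0.14 (SE), Fbxo28 one of 0.08, and Degs1, a ceramide-synthesis enzyme 282 kb away, one of -0.22 ± 0.10 (edgeR adjusted p = 0.274). On the far side, Susd4, 130 kb away, was at 0.35 ± 0.28 and Brox at 0.13. Tlr5, the receptor for bacterial flagellin, lies 320 kb from Capn8 and had 10.6, 13.1 and 12.7 CPM in WT and 3.97, 1.67 and 2.16 CPM in Nr2e3-/- tumors. The groups were far apart in the direction opposite to Capn8, with a log2 fold change of -2.25 ± 0.31 (SE), an edgeR unadjusted p of 0.000162 and an adjusted p of 0.0757. The adjusted p of Tlr5 was 5.19e-09 in DESeq2, 0.00912 in limma-voom, 0.0272 in edgeR with no filter and 0.00156 in edgeR without Nr2e3-/- replicate 1. In the remaining alternatives, all edgeR fits, it was 0.0784 to 0.334. Disp1, next to Tlr5, was at -0.48 ± 0.21 (SE, edgeR adjusted p = 0.240). The groups did not overlap for Degs1, Tlr5 and Disp1, beside 26.8% of all genes tested. Vmn1r1 and Ccdc185 had no counts.

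**Figure D4:**
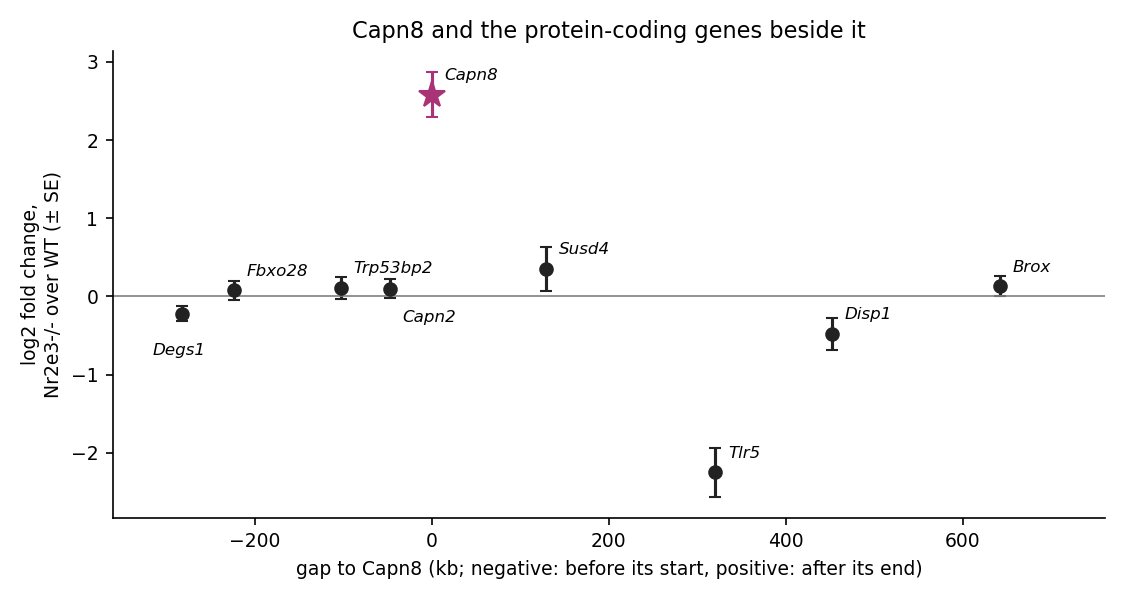
Fitted log2 fold changes with standard errors (vertical axis) of Capn8 and the tested protein-coding genes beside it, against their gap to Capn8 in kb (horizontal axis). Capn8 at 2.58 stands alone above its neighbours, Capn2 is at 0.10, and Tlr5, 320 kb away, is at -2.25.

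The promoters of Capn8, its neighbour Capn2 and Capn10 are shown because these genes lie on 1 chromosome and differed in their values. Each sequence is the 250 bases before the start site given in a RefSeq promoter table (GRCm38.p6), written 5′ to 3′ on the gene's strand. For Capn8 that site lies inside the RefSeq gene record, which begins at 182564749, so the window falls within the gene span given above. Capitals mark a match to the AP-1 element TGANTCA, bound by Fos and Jun proteins.
Capn8: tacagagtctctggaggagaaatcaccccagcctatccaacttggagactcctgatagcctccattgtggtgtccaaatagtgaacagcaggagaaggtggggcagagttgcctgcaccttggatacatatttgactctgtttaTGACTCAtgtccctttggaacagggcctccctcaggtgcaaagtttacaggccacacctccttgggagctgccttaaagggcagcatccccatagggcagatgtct
Capn2: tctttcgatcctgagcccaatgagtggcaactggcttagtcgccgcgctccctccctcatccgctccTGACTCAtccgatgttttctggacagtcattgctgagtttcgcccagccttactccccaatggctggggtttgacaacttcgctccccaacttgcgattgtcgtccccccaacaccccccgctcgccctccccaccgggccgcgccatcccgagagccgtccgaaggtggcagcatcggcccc
Capn10: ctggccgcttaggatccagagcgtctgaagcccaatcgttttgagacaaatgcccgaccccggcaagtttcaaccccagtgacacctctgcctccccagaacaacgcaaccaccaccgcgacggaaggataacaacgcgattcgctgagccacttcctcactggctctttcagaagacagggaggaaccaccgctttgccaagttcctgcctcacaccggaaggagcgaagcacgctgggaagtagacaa
They lie at chr1:182564757-182565006 (forward), chr1:182517611-182517860 (reverse) and chr1:92934158-92934407 (forward). The Capn8 window held 0 CpG dinucleotides, as did 7.9% of the 32851 windows of this length, and its GC content was 51.6%, where the median window had 52.4%. The Capn2 window held 19 CpG and the Capn10 window 16, with a median of 6 over all windows. Both strands were searched for 6 motifs: the AP-1 element, the GC box GGGCGG, the TCF/LEF element CTTTGAT, the STAT element TTCNNNGAA, the NR2E3 core element AAGTCA and the TATA box TATAAA. These were found in 6.7%, 32.7%, 3.2%, 7.0%, 13.1% and 12.4% of all windows. In the Capn8 and Capn2 windows the AP-1 element was the 1 match, beginning 106 and 183 bases before the start, and the Capn10 window had none of the 6. A match is a description of letters and no evidence of binding.

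The genes whose values most resembled those of Capn8 across the 6 libraries were found by Pearson correlation of log2 CPM among 11263 genes with a mean of at least 50 counts. They were Ahsa2 (r = 0.999), a relative of an Hsp90 co-chaperone, Tars2 (0.996), the mitochondrial threonyl-tRNA synthetase, Fip1l1 (0.995), a polyadenylation factor, Tubgcp4 (0.995), a gamma-tubulin complex subunit, and Zbtb16 (0.995), a zinc finger transcription factor. The points share their 2 genotypes, and 372 of the 11263 genes had r above 0.9. Ahsa2 had a log2 fold change of 0.48. Zbtb16 was nearer to Capn8 in size, with 18.2, 14.0 and 19.0 CPM in WT and 73.8, 42.6 and 57.5 CPM in Nr2e3-/- tumors and a log2 fold change of 1.76. Within the family, the correlation with Capn8 was 0.93 for Capn15 and 0.83 for Capn7, between 0.31 and 0.62 for Capn2, Cast and Capns1, and -0.68, -0.70 and -0.75 for Capn10, Capn5 and Capn11.

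Genes around the calpains were read from hand-written lists. Of 24 calpain substrates, 3 were higher and 3 lower at an edgeR unadjusted p under 0.05, beside 21.5% of all genes tested, and the median log2 fold change was 0.05. The adjusted threshold was passed by 0 in edgeR, 2 in DESeq2, 5 in limma-voom and 7 in edgeR without Nr2e3-/- replicate 1. These fits called 13, 1096, 2360 and 3022 genes over the whole table. Ptpn1, a tyrosine phosphatase that calpain can cut free from the endoplasmic reticulum, had 36.7, 36.6 and 30.6 CPM in WT and 38.7, 143 and 130 CPM in Nr2e3-/- tumors. Nr2e3-/- replicate 1 lay just above the WT libraries and the other 2 far above (log2 fold change 1.59 ± 0.44 SE, edgeR adjusted p = 0.130). The spectrin gene Sptbn1 was at 0.70 (adjusted p = 0.161), the adducin gene Add1 at -0.31 (adjusted p = 0.175) and Casp12, a caspase of the endoplasmic reticulum, at -0.98 (adjusted p = 0.180), all in edgeR.

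Of 21 genes from a list for calcium handling, 6 were higher and 5 lower at an edgeR unadjusted p under 0.05, beside 21.5% of all genes tested. The list held channels and pumps, and also Canx, Calr and S100a10, which are neither. The groups did not overlap for 11, beside 26.8% of all genes tested, and the median log2 fold change was 0.01. Here 0 passed the adjusted threshold in edgeR, 7 in DESeq2, 8 in limma-voom and 5 in edgeR without Nr2e3-/- replicate 1. Over all genes, these fits called 13, 1096, 2360 and 3022. Atp2a2, the calcium pump of the endoplasmic reticulum, had 303, 256 and 264 CPM in WT and 421, 390 and 442 CPM in Nr2e3-/- tumors. All 3 Nr2e3-/- libraries, replicate 1 included, were above WT (log2 fold change 0.61 ± 0.12 SE, edgeR adjusted p = 0.0930). The plasma membrane calcium pump Atp2b1 was at 0.67 (adjusted p = 0.114), the annexin partner S100a10 at 1.56 (adjusted p = 0.0997) and the cation channel kinase Trpm7 at -0.40 (adjusted p = 0.127), all in edgeR.

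**Figure D5:**
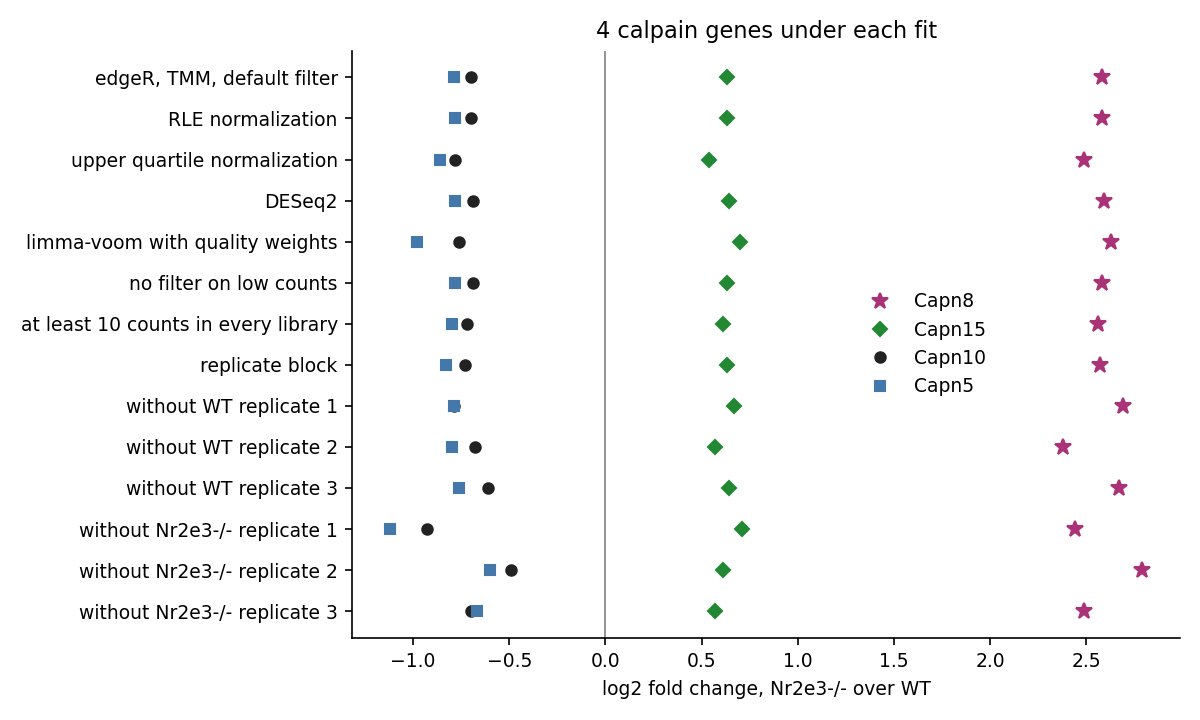
Fitted log2 fold change (Nr2e3-/- over WT, horizontal axis) of 4 calpain genes under the edgeR fit used here and each of 13 alternatives (vertical axis). Capn8 ranged from 2.38 to 2.79, Capn15 stayed above 0, and Capn10 and Capn5 stayed below 0 and were lowest without Nr2e3-/- replicate 1.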

How the data were processed

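The authors prepared TruSeq libraries from tumor RNA, aligned single-end reads to mm10 (GRCm38) with TopHat and counted reads per gene with featureCounts. The deposited table used here holds raw counts, without normalization. The submitters' processing notes also name Bowtie2 2.4.5 and SAMtools 1.14. The strand setting was not given in the sources used here. The authors' normalized table and their comparison table, which holds log2 fold changes and p-values from DESeq2, were not used.

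The genotype given in the labels set the groups. Dose and age came from the paper's methods, and the time point of these libraries from a figure legend of the paper. Low genes were removed with filterByExpr, at settings of 10 counts and 15 in total. The first setting is scaled to library size and must be met in as many libraries as the smallest group holds. It need not be met in every library. DESeq2 was run without this filter. After TMM normalization, genotypes were compared by the two-sided quasi-likelihood F test of edgeR 4.0.16 in R 4.3.3, with Benjamini-Hochberg adjustment over all genes tested and a threshold of 0.05. Each edgeR standard error was derived as the absolute log2 fold change divided by the square root of the F statistic. Log2 CPM used a prior count of 2. DESeq2 1.42.0 and limma 3.58.1 (voom with quality weights) were alternatives, beside RLE and upper quartile normalization, 2 other filters, the replicate number as a block and leaving out each library. The pipeline was tested on simulated data. Tables and figures used Python 3.11.15, pandas 2.3.3 and matplotlib 3.10.9.

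Exon lengths, overlaps and coding sequences came from GENCODE M21, and gene positions and promoters from RefSeq. Level per kb used the union of exons. The genes named are all calpain genes and up to 4 genes of each list with the smallest unadjusted p under 0.05. Also named are the 5 genes most like Capn8 and the 5 protein-coding genes on each side of it. Added after values were seen were the 2 called genes of larger fold change, the gastric markers named, and Alb and Tff3. So were the genes that overlap Capn10 or Cast. The members, the lists (written from memory) and the tests were chosen with earlier results of these data known. Depth was 15376261 to 28690279 counts per library, and the limit of 3 counts for a count of 0 covers counting error only.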

Additional observations from a re-analysis of the deposited data

How the results depend on the processing

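The higher level of Capn8 in Nr2e3-/- tumors kept its direction under all 13 alternatives, with a log2 fold change of 2.38 to 2.79. Capn8 was chosen for this direction in these libraries and its groups did not overlap, so this is a description and no support. Capn8 was not among the genes called with upper quartile normalization, with at least 10 counts in every library or with the replicate block. Nor was it called without Nr2e3-/- replicate 3 or without any 1 of the WT libraries. The number of genes passing an adjusted p of 0.05 over the whole table, 13 in edgeR with TMM and with RLE, was 8 with upper quartile normalization, 70 with no filter, 7 with at least 10 counts in every library, 1096 in DESeq2 and 2360 in limma-voom. Leaving out 1 library gave 0 to 3022, with 3022 without Nr2e3-/- replicate 1, 18 without Nr2e3-/- replicate 2, 2 without WT replicate 2 and 0 without Nr2e3-/- replicate 3, WT replicate 1 or WT replicate 3. The cause was not tested. Of the 7 other members, 2 were called in limma-voom and 0 to 2 when 1 library was left out. Capn10 was at -0.76 in limma-voom and at -0.93 to -0.49 with 1 library left out, and Capn5 at -0.98 and at -1.12 to -0.60. Capn2 ranged from -0.01 to 0.16 with 1 library left out, and was at -0.01 without WT replicate 3. Capn7 was at -0.02 with upper quartile normalization, which moved the median of all genes to -0.08. Of the genes of the lists of other calpains, substrates and calcium handling, 0 passed in edgeR, 10 in DESeq2, 14 in limma-voom and 0 to 14 with 1 library left out, the 14 being without Nr2e3-/- replicate 1. Among the genes beside Capn8, 1 (Tlr5) was called in DESeq2, in limma-voom and with no filter, and 0 to 1 with 1 library left out. The rank of Capn8 per kb in Nr2e3-/- tumors was 7 by the longest transcript and 7 to 8 with 1 library left out. With the replicate number as a block, 0 genes were called and no call of another member changed. The deviations of same-numbered libraries correlated at -0.0766, 0.221 and 0.0234, and not every library correlated best with its own number. With 3 libraries per group, these correlations cannot decide whether the numbers pair the mice. Precision is limited by 3 mice per group and, for Capn8 in WT, by 42 to 65 counts per library.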

Other observations

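Lysosomal and cytosolic cysteine proteases other than calpains were read from a list of cathepsins and their inhibitors. Of 9 genes tested, 1 had an edgeR unadjusted p under 0.05, beside 21.5% of all genes tested, and the median log2 fold change was 0.03. That gene was Ctsl (cathepsin L), with 426, 452 and 540 CPM in WT and 505, 1033 and 775 CPM in Nr2e3-/- tumors. Nr2e3-/- replicate 1 lay within the WT range, and the log2 fold change of 0.71 ± 0.26 (SE) had an edgeR adjusted p of 0.182. Ctsl was called in limma-voom and in edgeR without Nr2e3-/- replicate 1.

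Of 10 hepatocyte markers, 3 had higher values at an edgeR unadjusted p under 0.05, the level reached by 21.5% of all genes tested. Their median log2 fold change, over all 10, was 0.24. The adjusted threshold was passed by 0 in edgeR, 2 in DESeq2 and 3 in limma-voom. These fits called 13, 1096 and 2360 genes over the whole table. Fgb, a fibrinogen chain, was at 1.15, Tat, tyrosine aminotransferase, at 1.30 and Hnf4a, a hepatocyte transcription factor, at 0.50. Among 10 bile duct markers tested, 2 were higher at that unadjusted p, Epcam at 1.58 and Spp1 at 1.68. Krt23 at -2.40 and Cldn7 at -2.05 were the 2 lower. Krt23 had groups that did not overlap, unlike the other 3. The adjusted threshold was passed by 0 in edgeR, by Cldn7, Krt23 and Epcam in DESeq2, and by Epcam in limma-voom. For the 8 stromal markers the median log2 fold change was -0.35, and 0 had an edgeR unadjusted p under 0.05. DESeq2 called 0 of them and limma-voom 3, all lower. Of 7 endothelial markers, 1 was higher (Lyve1 at 0.82) and 1 lower (Kdr at -0.61) at an edgeR unadjusted p under 0.05. Their groups did not overlap for 4 of the 7, beside 26.8% of all genes tested. Of 8 immune markers tested, 1 was higher (S100a8 at 2.65) and 1 lower (Cd79a at -1.36) at that level, reached by 21.5% of all genes. Cd79a had only 3, 5 and 3 counts in the Nr2e3-/- libraries. None of the 4 genes named here passed the adjusted threshold in edgeR. DESeq2 and limma-voom each called Lyve1, Kdr and S100a8. S100a8 was at 0.653 to 1.05 CPM in WT and at 0.728, 8.61 and 5.57 CPM in Nr2e3-/- tumors, so replicate 1 lay within the WT range. Without Nr2e3-/- replicate 1, edgeR called 3022 genes over the whole table. Among the markers it called 2 of 10 hepatocyte, 3 of 10 bile duct, 3 of 8 stromal, 2 of 7 endothelial and 1 of 8 immune genes.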
